A study of Saccharomyces cerevisiae with 6 samples.

Results

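The comparison of the natural ssy1T9 allele with wild type rests on 2 of the 6 dual-colour arrays of the series, those whose titles pair s288c wt with ssy1T9. RNA of wt carried Cy5 and RNA of ssy1T9 carried Cy3 on array 1, and the dyes were exchanged on array 2. All 5711 genes with a symbol were described, and every value below is a log2 ratio of ssy1T9 over wt unless another pair is named. S288C is the common laboratory background of budding yeast; the titles give it for wt and name no background for ssy1T9. The other 4 arrays, which pair the deletion strain ssy1KO with wt and with ssy1T9, entered the statistical fit only. The labels give no medium, growth phase, ploidy or number of cultures, and do not say how the strains were built, so the p-values measure the spread between arrays, which may be technical. A bulk RNA ratio also cannot tell a change in all cells from a change in the share of cells that express a gene.

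SSY1 encodes a permease-like plasma membrane protein that does not transport but senses external amino acids together with Ptr3 and the protease Ssy5, as the SPS sensor. When amino acids bind, Ssy5 cleaves the latent transcription factors Stp1 and Stp2, which enter the nucleus and, with Dal81, induce genes of amino acid and peptide permeases. Cells that cannot sense or take up preferred nitrogen sources relieve nitrogen catabolite repression, through which the GATA activators Gln3 and Gat1 turn on genes for poorer sources such as proline, allantoin and urea. No sequence is printed here because none was among the sources used.

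The median over named rows was subtracted from each array, and the deposited medians as Cy5 over Cy3 were -0.51 on array 1 and -0.08 on array 2. The direction of the ratio is likely, not stated: it was taken as Cy5 over Cy3 because this puts SSY1 below its partner strain in ssy1KO on each of the 4 arrays with ssy1KO RNA. The base of the logarithm was assumed to be 2, so every fold rests on that. A linear model with a dye term for each gene was fitted to all 6 arrays, and a gene is called higher or lower where limma gave a Benjamini-Hochberg adjusted p under 0.05 for ssy1T9 against wt. The median SE of the fitted difference was 0.08 on the log2 scale. Array data of this kind give no level per gene, so only differences between the strains are described.

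In ssy1T9 the largest rises included the proline oxidase gene PUT1 and genes for other poor nitrogen sources and for sulphate. GDH1 of ammonium fixation and the biosynthesis genes LEU2 and MET2 also rose strongly. The largest falls included genes of amino acid permeases controlled by the sensor and of serine and glycine breakdown. On both arrays 44 genes lay at least 2-fold higher (0.77%) and 25 at least 2-fold lower (0.438%). In the fit 1501 of 5711 genes were called (26.3%), 793 higher (13.9%) and 708 lower (12.4%). Counts of called members in each gene list below are to be read beside these shares. Without array 1 the fit called 412 higher and 409 lower, without array 2 it called 673 and 448, and without array 1 of ssy1KO and wt 538 and 466. With the columns left uncentred the typical gene lay at 0.17, and 1838 genes were called higher and 176 lower (91.3% higher, against 52.8%), so small changes are given relative to the typical gene. The called genes nearest the threshold were MRPS35, DUS1, YPR137C-B, SEN34 and SHM1, with adjusted p from 0.0494 to 0.0498, and those just outside it NPR3, YLR419W, YOR008C-A, HIS1 and MMS4, from 0.05 to 0.0501. Each of the 6 fits that leave out 1 array called a shared 360 genes higher (6.3%) and 280 lower (4.9%) in the same direction as the fit over all arrays.

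**Figure D1:**
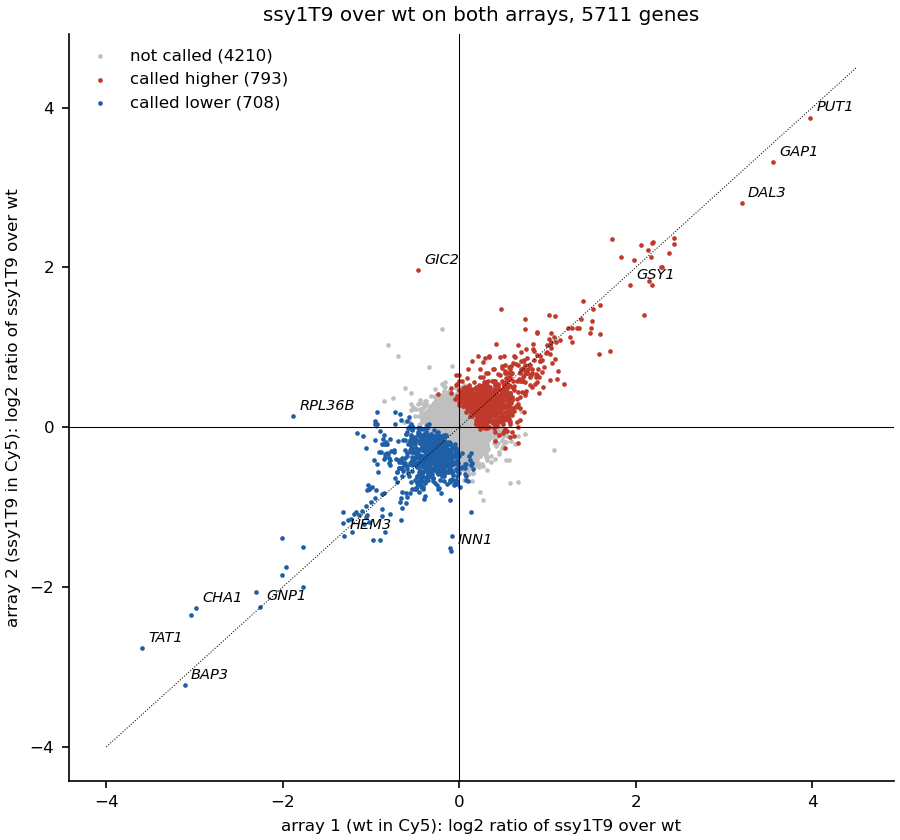
Log2 ratio of ssy1T9 over wt on array 1 (horizontal, wt in Cy5) and array 2 (vertical, ssy1T9 in Cy5), 1 point per gene for 5711 genes, with the 793 called higher and the 708 called lower in colour and some chosen genes labelled. PUT1, GAP1 and DAL3 stand at the upper right, TAT1 and BAP3 at the lower left, and GIC2, at -0.47 and 1.97, lies off the diagonal.

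The 2 arrays agreed in sign where changes were large and often differed where they were small. Genes are not independent replicates, and across them the arrays correlated with r = 0.67 and Spearman's rho = 0.41. The sign was shared by 60.5% of all genes. All 80 genes with a mean of at least 1 in size had the same sign on both arrays, and so did 98.8% of the 246 genes with a mean from 0.5 to 1. Among the 2456 genes with a mean under 0.1 it was 28.8%. These means come from the same 2 arrays, and a large mean leaves little room for opposite signs. The median gap between the arrays was 0.155 in genes with a mean under 0.1 and 0.145 at 1 or more. The rise of agreement with size is thus largely fixed by the grouping and does not measure how well the arrays repeat. Of the called genes 68 had opposite signs on the 2 arrays; the fit used both, so this agreement is partly built in.

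The sensor gene itself was not reduced. SSY1 read 0.22 and 0.36 on arrays 1 and 2 and was higher in the fit (0.35, SE 0.09, limma adjusted p = 0.00286). It did not pass in a fit of these 2 arrays alone, where limma gave all genes the same variance (adjusted p = 0.199). Of the 12 measured genes of the sensor and its effectors 5 rose (41.7%) and 0 fell, beside 13.9% and 12.4% of all genes. The list median was 0.15 beside -0.01 for all genes. The medians were 0.235 on array 1 but -0.04 on array 2, and 6 of the 12 genes had the same sign on both arrays. List medians here and below are of the fitted difference, unless an array is named. STP2, encoding an effector factor, read 0.71 and 0.59, above 0 on both arrays (adjusted p = 2.7e-07). Without array 1 the list held 2 called genes.

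All 9 permease genes controlled by the sensor fell, with a median of -2.15. TAT1, encoding a tyrosine and branched-chain amino acid permease, read -3.59 and -2.77 (8.75-fold lower, adjusted p = 2.7e-19). The branched-chain permease gene BAP3 read -3.11 and -3.23 and BAP2 -3.04 and -2.35. The glutamine permease gene GNP1 read -2.26 and -2.25, the tryptophan and tyrosine permease gene TAT2 -1.77 and -2.01 and the peptide transporter gene PTR2 -2.30 and -2.07. In these 6 genes both arrays lay below -1.7, and the arrays differed most in TAT1. The methionine permease gene MUP1 read -1.77 and -1.50 and DIP5, for acidic amino acids, -1.14 and -1.10. AGP1, encoding a broad-range permease, read -0.56 and -0.16, and its call was lost without array 1 (adjusted p = 0.106).

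Other amino acid and peptide transporters went both ways. In that list of 16 genes 4 rose (25.0%) and 6 fell (37.5%), beside 13.9% and 12.4% of all genes. The fit without array 1 called 4 higher and 3 lower. Without centring 6 rose and 3 fell, where 32.2% and 3.08% of all genes did. The general amino acid permease gene GAP1 read 3.56 and 3.32, an increase of 11.3-fold (SE 0.08 on the log2 scale, adjusted p = 1.2e-21). SAM3, which encodes the S-adenosylmethionine permease, read 0.70 and 0.95. In the opposite direction, the oligopeptide transporter genes OPT1 and OPT2 read -2.01 and -1.86 and -1.02 and -0.78. SSU1, encoding the sulphite pump, read -0.90 and -1.41. Every array value of these 5 genes lay at least 0.7 from 0.

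**Figure D2:**
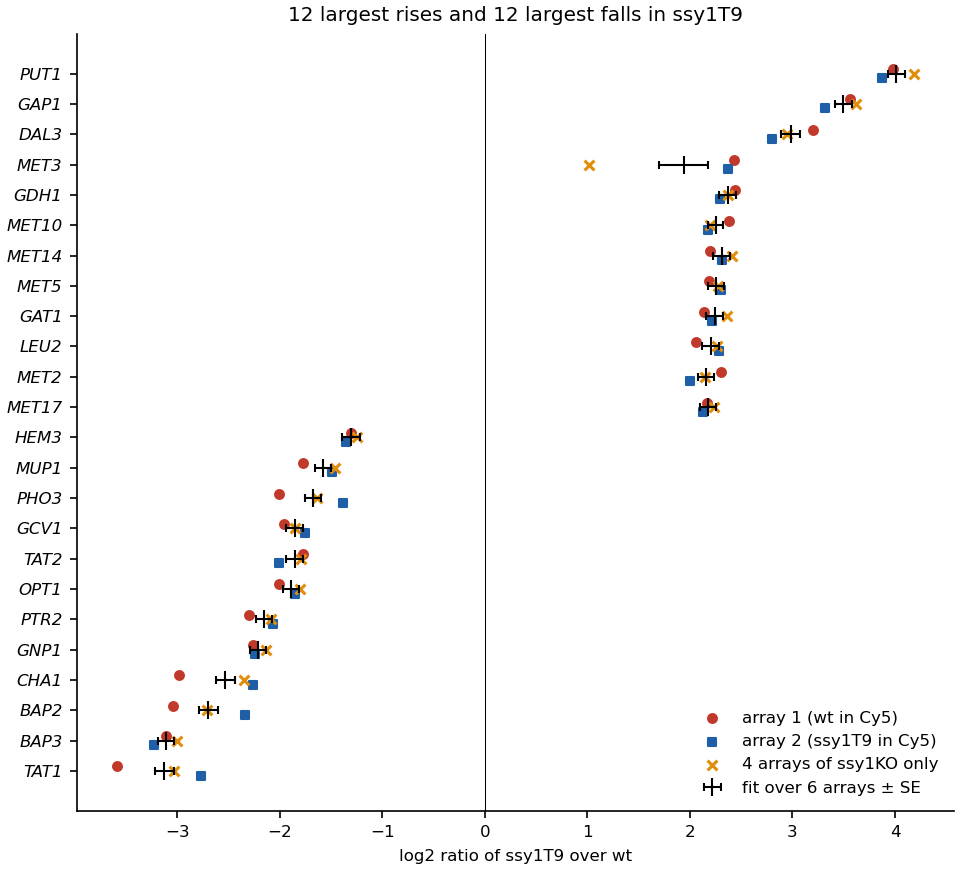
Log2 ratio of ssy1T9 over wt (horizontal) for the 12 largest rises and 12 largest falls, with array 1 and array 2 as separate symbols, the fit over 6 arrays as a bar with its SE, and the value from the 4 arrays of ssy1KO as a cross. Apart from MET3, whose cross lies at 1.02 against 2.43 and 2.38 on the arrays, the symbols of a gene lie close together compared with their distance from 0.

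The proline gene PUT1 and genes for some other poor nitrogen sources rose, and others were not called. PUT1, encoding proline oxidase, had the largest change of all genes, at 3.98 and 3.88 (16.1-fold, SE 0.08 on the log2 scale, adjusted p = 8.6e-23). Of 23 measured genes in a list of proline, allantoin, urea, GABA and arginine use, which also holds the vacuolar protease genes APE1, PRB1 and CPS1, 14 rose and 0 fell; without these 3 proteases it was 11 and 0 of 20. The median was 0.25 without the proteases, and the whole list had a median of 0.33. The 9 genes not called, DAL1, DAL2, DAL4, DAL5 and DAL7 of allantoin use among them, had means of the 2 arrays between -0.07 and 0.18, and the allantoate permease gene DAL5 read -0.09 and -0.06. DAL3, encoding ureidoglycolate lyase, read 3.20 and 2.81, the urea permease gene DUR3 2.15 and 1.83, and DCG1, a gene of the allantoin cluster, 1.60 and 1.53. CAR2, for ornithine aminotransferase of arginine breakdown, read 1.73 and 2.36 and was thus higher on array 2 by over 0.5. Among 11 genes of GATA factors and their regulators 6 rose and 0 fell. The activator gene GAT1 read 2.14 and 2.22 and the repressor gene DAL80 2.19 and 1.79, while GLN3 read 0.54 and 0.45 and the permease kinase gene NPR1 0.60 and 0.38.

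Ammonium genes moved in part. MEP1, encoding an ammonium transporter, read 1.52 and 1.48, and GDH1, for the NADP-dependent glutamate dehydrogenase that fixes ammonium, 2.44 and 2.30. The glutamine synthetase gene GLN1 read 0.99 and 1.04 and the glutamate synthase gene GLT1 0.44 and 0.67. Of the 12 genes of this list 5 rose and 2 fell, and the count of falls was 1 without array 1 or without array 2. Over 6 arrays that is 41.7% and 16.7%, beside 13.9% and 12.4% of all genes.

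Most genes of vacuolar hydrolases rose, and genes of other vacuolar functions were called in part. Of 12 genes of that list, which also holds the inhibitor genes PAI3 and PBI2 and the cell surface protease gene YPS1, 10 rose and 0 fell, with a median of 0.37; the share of all genes called higher was 13.9%. APE1, encoding vacuolar aminopeptidase I, read 1.71 and 0.96, and PRB1, for proteinase B, 1.04 and 0.995. The carboxypeptidase gene CPS1 read 0.34 and 0.89 and the mannosidase gene AMS1 0.51 and 0.47. All 12 had the same sign on both arrays. Of 17 genes of vacuolar amino acid transporters 7 rose and 1 fell; without array 1 it was 4 and 1. AVT6, which encodes an exporter of acidic amino acids from the vacuole, read 0.70 and 0.84 and AVT4, another exporter gene, 0.65 and 0.58. RTC2, the gene of a vacuolar transporter of cationic amino acids, read 0.46 and 0.89 and AVT7 0.48 and 0.45. These 4 genes lay above 0 on both arrays. Among 32 autophagy genes 11 rose and 2 fell. ATG19, the receptor gene for import of APE1, read 0.60 and 0.36, ATG8 0.40 and 0.46, ATG2 0.48 and 0.45 and ATG33 0.57 and 0.35. Leaving out array 1 or 2 left 7 autophagy genes higher and 1 lower.

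Sulphate assimilation genes all rose, by unequal amounts. All 11 measured genes rose, with list medians of 2.10 on array 1 and 1.40 on array 2, and all 11 did so in each fit that left out 1 array. The sulphate permease genes SUL1 and SUL2 read 1.36 and 1.25 and 1.51 and 1.34. ATP sulphurylase gene MET3 read 2.43 and 2.38, adenylylsulphate kinase gene MET14 2.20 and 2.32 and the reductase gene MET16 2.10 and 1.41. The sulphite reductase genes MET5 and MET10 read 2.19 and 2.31 and 2.38 and 2.18, and MET17, encoding homocysteine synthase, 2.17 and 2.13. Only MET16 differed by more than 0.3 between the arrays among these genes. The change in MET3 had an SE of 0.24, since it read 2.30 and -0.50 in ssy1KO over wt on the 2 arrays of that pair.

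In the methionine cycle and cysteine synthesis 8 of 14 genes rose and 1 fell. Homoserine acetyltransferase gene MET2 read 2.30 and 2.01, methionine synthase gene MET6 1.98 and 2.10, STR3, for cystathionine beta-lyase, 1.38 and 1.36 and MET13, for a methylenetetrahydrofolate reductase, 1.14 and 1.10. The member that fell was CYS4, encoding cystathionine beta-synthase, which makes cystathionine on the way to cysteine, at -0.66 and -1.16. Of the 9 regulators of the network 2 rose (22.2%) and 1 fell (11.1%), beside 13.9% and 12.4% of all genes. MET32 read 1.08 and 0.86 and the ubiquitin ligase subunit gene MET30 0.19 and 0.28, but MET31 -0.38 and -0.53. The activator gene MET4 read 0.09 and 0.09 and did not pass (adjusted p = 0.202).

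Amino acid biosynthesis genes rose in several pathways, each led by a few members. Their counts stand beside 13.9% of all genes called higher and 12.4% called lower. Of 13 branched-chain genes 6 rose and 0 fell, with LEU2 at 2.06 and 2.29, LEU1 at 1.83 and 2.13 and the aminotransferase gene BAT1 at 1.60 and 1.17. Of 11 arginine and ornithine genes 6 rose and 0 fell, with the argininosuccinate lyase gene ARG4 at 1.08 and 1.40. Among 9 lysine genes 6 rose and 1 fell. The saccharopine dehydrogenase gene LYS1 read 0.82 and 0.68 and LYS2 0.51 and 0.90, against LYS20, one of the homocitrate synthase genes, at -0.46 and -0.81 and its paralog LYS21 at 0.62 and 0.21. Both arrays thus put LYS20 lower and LYS21 higher. Of 13 aromatic genes 8 rose and 1 fell, led by ARO1 at 0.76 and 0.99 and TRP5 at 0.85 and 0.85, and 4 rose and 0 fell without array 1. Of 9 genes of the aspartate family 3 rose and 1 fell, with HOM2 at 0.80 and 0.79 and HOM3 at 0.58 and 0.62, and GLY1, for threonine aldolase, at -0.48 and -0.33, whose fall was not called without array 1. Histidine genes rose in 5 of 7 cases, with HIS4 at 0.67 and 1.04. Among 13 regulators of general amino acid control 0 were called higher and 3 lower (median -0.07), and 1 lower without array 1 or without array 2. Without centring 4 were called higher and 0 lower, beside 32.2% and 3.08% of all genes. The list median was then 0.105, below the 0.168 of all genes in that setting. GCN4 itself read 0.11 and 0.05 (limma adjusted p = 0.628).

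Serine and glycine breakdown fell while the first step of serine synthesis rose. CHA1, for the catabolic serine and threonine deaminase, read -2.98 and -2.27 (5.78-fold lower, adjusted p = 7.6e-18). The glycine cleavage genes GCV1, GCV2 and GCV3 read -1.96 and -1.76, -1.10 and -1.05 and -1.02 and -0.78, and the cytosolic serine hydroxymethyltransferase gene SHM2 -1.03 and -0.73. SER3 and SER33, paralogous genes of phosphoglycerate dehydrogenase, read 0.47 and 1.48 and 0.88 and 0.91. Of 17 genes of this list 9 fell (52.9%) and 4 rose (23.5%), beside 12.4% and 13.9% of all genes. SER3 also had a dye effect of 0.77 as Cy5 over Cy3, so its arrays differed by more than those of the others.

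In carbon metabolism, storage carbohydrate genes rose and most glycolytic genes were not called. Of 15 glycogen genes 9 rose and 0 fell, with the synthase gene GSY1 at 1.94 and 1.78, the phosphoglucomutase gene PGM2 at 1.40 and 1.59, the phosphorylase gene GPH1 at 1.04 and 1.07 and the branching enzyme gene GLC3 at 1.03 and 1.04. Of 7 trehalose genes 6 rose, with TSL1 at 0.95 and 0.51, TPS1 at 0.59 and 0.67 and TPS2 at 0.33 and 0.58, subunits of the synthase complex, and NTH1, encoding trehalase, at 0.44 and 0.50. Synthesis and breakdown genes thus rose together in both lists. Of 21 genes of glycolysis and fermentation 5 rose and 0 fell, counts that ranged from 2 without array 1 to 8 without array 2. The hexose kinase genes GLK1 and HXK1 read 1.02 and 1.41 and 1.05 and 0.81. Of 24 hexose transport and sensing genes 5 rose and 4 fell, 2 and 3 without array 1 and 2 and 4 without array 1 of ssy1KO and wt. Over 6 arrays that is 20.8% and 16.7%, beside 13.9% of all genes called higher and 12.4% lower. HXT4 read 0.53 and 0.62, and HXT2, for a high-affinity transporter, -0.82 and -0.33. Probes of HXT genes may share signal, since these genes are close in sequence.

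Among 29 genes of the citrate cycle, malate and the retrograde response 12 rose and 2 fell. The pyruvate carboxylase gene PYC1 read 1.48 and 1.18, the peroxisomal citrate synthase gene CIT2 0.88 and 1.19, DLD3, a lactate dehydrogenase gene and common reporter of the retrograde response, 1.03 and 1.03 and aconitase gene ACO1 0.73 and 0.85. MDH2, encoding cytosolic malate dehydrogenase, read -0.96 and -0.89. The arrays agreed in sign for these 5 genes. Respiratory chain and ATP synthase genes were called in 8 of 45 cases, 4 in each direction, with NDE1 at -0.66 and -0.89, COX5B at 0.69 and 0.68 and NDI1 at 0.47 and 0.47. Each direction held 8.89% of the list, below the shares of all genes, 13.9% higher and 12.4% lower. Without array 1 of ssy1KO and wt 2 were called in each direction, and without array 1 or array 2 there were 2 falls.

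Of 30 heat shock and stress genes 21 rose (70.0%) and 1 fell (3.33%), 15 and 0 without array 1. The shares of all genes were 13.9% higher and 12.4% lower. DDR2 read 1.23 and 1.25, the small heat shock protein genes HSP42 and HSP26 1.28 and 1.07 and 0.88 and 1.195, HSP12 0.92 and 0.90 and GPD1, for glycerol synthesis, 0.74 and 1.23. Each of these lay at least 0.7 above 0 on both arrays. Of 25 redox defence genes 5 rose and 1 fell, 2 and 0 without array 1, with the mitochondrial peroxiredoxin gene PRX1 at 0.39 and 0.74.

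**Figure D3:**
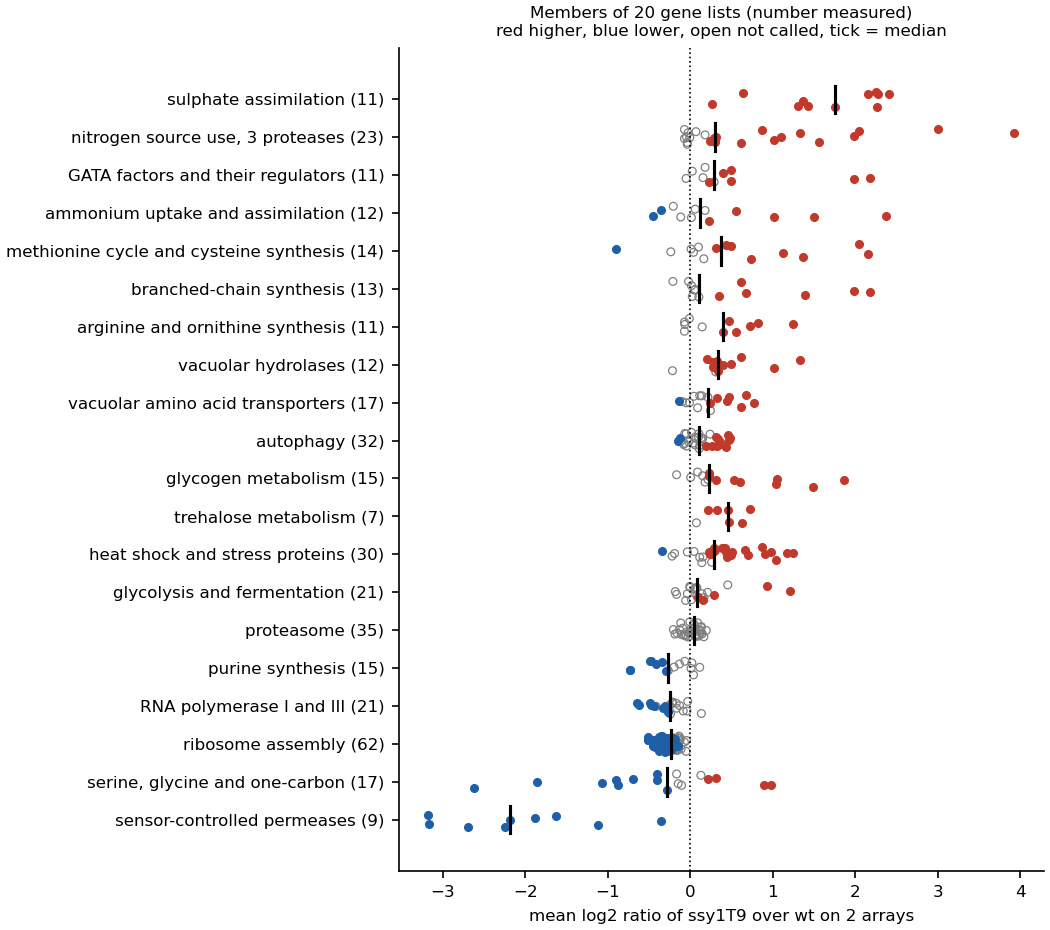
Mean log2 ratio of ssy1T9 over wt on the 2 arrays (horizontal) of each measured member of 20 gene lists, 1 point per gene, with called genes filled and the median of these means as a vertical tick; the dotted line is the value of no change after centring. All 11 sulphate genes lie right and all 9 sensor-controlled permease genes left of that line, and no proteasome gene is filled.

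Genes for making ribosomes were lower by small amounts. Of 62 genes of ribosome assembly 38 fell and 0 rose, against 12.4% of all genes called lower. Their median was -0.26, and -0.08 without centring, and 52 of 62 had the same sign on both arrays. DBP2, a helicase gene, read -0.43 and -0.61, NOP7 -0.46 and -0.57, RPF2 -0.43 and -0.48 and NOP58 -0.11 and -0.92, the last with most of its change on array 2. The count of falls was 18 without array 1, 24 without array 1 of ssy1KO and wt, and 25 without array 2, and 4 fell without centring. Of 21 genes of RNA polymerases I and III 9 fell and 0 rose, with RPA34 at -0.40 and -0.90 and RPA49 at -0.49 and -0.48; the median was -0.21, and -0.03 without centring, where 5 fell. Translation factor genes fell in 13 of 30 cases, but in 6 without array 1 or without array 2 and in 8 without array 1 of ssy1KO and wt. Without centring 1 of the 30 fell, beside 3.08% of all genes called lower in that setting, and the median of -0.18 came to -0.0017. TIF6, which keeps ribosomal subunits apart, read -0.44 and -0.66. TEF2 read -0.96 and 0.08 and EFB1 -0.93 and 0.19, both low on array 1 only; TEF2 was called in 2 of the 6 fits that leave out 1 array.

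Some nucleotide genes fell too. Of 15 purine genes 7 fell and 0 rose, with the first enzyme gene ADE4 at -0.59 and -0.88, ADE1 at -0.65 and -0.81, ADE17 at -0.48 and -0.48 and the IMP dehydrogenase gene IMD4 at -0.48 and -0.50. The list median was -0.18, and -0.0017 without centring, where 3 fell. Of 16 pyrimidine genes 5 fell and 0 rose, 3 without array 1 of ssy1KO and wt and 8 without its array 2; the median of -0.14 turned to 0.03 without centring, where 1 fell and 2 rose. FUI1, the uridine permease gene, read -1.02 and -1.19, and the purine and cytosine permease gene FCY2 -0.43 and -0.37. URA3, a common selection marker, read -0.12 and -0.06 (adjusted p = 0.749).

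Several genes of the cell surface, metal uptake and lipids fell, and most members of their lists were not called. Of all genes 13.9% were called higher and 12.4% lower, and without centring 32.2% and 3.08%. Falls made up 20.8% of the phosphate list, 21.4% of the iron list and 25.0% of the cell wall list. They made up 6.25% of the folding list and 5.56% of the zinc and vitamin list. PHO3, encoding a thiamine-repressed acid phosphatase, read -2.01 and -1.39, and the sodium-phosphate cotransporter gene PHO89 -1.32 and -1.07. In the phosphate list 3 of 24 genes rose and 5 fell, 2 and 2 without array 1 or without array 2, and 6 and 2 without centring. SIT1 and FIT2, for siderophore uptake, read -1.23 and -1.15 and -0.78 and -1.09, and FIT3 -0.49 and -0.76, in a list where 6 of 28 genes fell and 1 rose, with 3 falls without array 1 and, without centring, 3 falls and 5 rises. The zinc transporter gene ZRT1 read -1.06 and -0.99. Of 32 cell wall genes 8 fell and 4 rose, 5 and 2 without array 1 of ssy1KO and wt, 3 and 2 without array 2 and 7 and 1 without array 1, while without centring 3 fell and 8 rose; SED1 read -1.17 and -1.06 and TIP1 -0.94 and -0.79, and SPI1 rose at 0.54 and 0.69. CHO2, for phosphatidylethanolamine methylation, read -1.26 and -1.17, and OLE1, the fatty acid desaturase gene, -0.48 and -0.70. HEM3, encoding porphobilinogen deaminase of heme synthesis, read -1.31 and -1.36 and was 2.47-fold lower (adjusted p = 1.0e-11). HAC1, the transcription factor gene of the unfolded protein response, read -0.85 and -0.83, whereas in its list of 16 folding genes 2 rose and no other fell, and each fit that left out 1 array called 1 riser. Of 18 zinc and vitamin genes 4 rose and 1, ZRT1, fell, with 2 falls without array 2 of ssy1KO and wt or without array 1 of ssy1T9 and ssy1KO. The risers included genes of biotin synthesis, with BIO4 at 0.77 and 0.68, BIO3 at 0.54 and 0.50 and BIO2 at 0.46 and 0.47, while BIO5 and the biotin transporter gene VHT1 were not called.

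Other lists held few or no called genes. Of 35 proteasome genes 0 were called, and none of 9 genes of daughter cell separation, 17 of meiosis or 10 histone genes was called either by limma in the fit over 6 arrays. At an unadjusted limma p under 0.05 the counts were 5 proteasome genes, 2 meiosis genes and 0 of the other lists, beside 2083 of all 5711 genes. Histone genes differed between the arrays, with medians of -0.27 on array 1 and 0.08 on array 2. Aminoacyl-tRNA synthetase genes were called in 3 of 20 cases, beside 26.3% of all genes, and in 0 without array 1. Markers of mating type were read as a check of the strains. Of 7 MATa genes and of 10 haploid genes limma called 0, with medians of 0.045 and 0.05, while 2 and 1 had an unadjusted p under 0.05. Of 4 MATalpha genes 2 fell, SAG1 at -0.85 and -0.21 and MF(ALPHA)2 at -0.40 and -0.43, and 2 did not pass, STE3 at 0.06 and 0.03 and MF(ALPHA)1 at -0.55 and 0.22. Among 8 genes often deleted in laboratory strains LEU2, MET17, HIS3, LYS2 and CAN1 rose, and TRP1 fell by 0.23 (adjusted p = 0.0288), a call lost without array 1, without array 2 or without array 1 of ssy1KO and wt. Whether a difference in strain markers has a part in these changes was not tested.

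The same difference can be had without the 2 arrays, along the path from wt to ssy1KO to ssy1T9 on the other 4. That path had a median SE of 0.125 against 0.08 for the full fit. It called 101 genes (1.77%), 64 higher (1.12%) and 37 lower (0.648%). The 2 arrays alone called 584 (10.2%), 301 higher (5.27%) and 283 lower (4.96%). Of the path's calls 101 of 101 were among them with the same direction, which is 17.3% of the 584. The fit of the 2 arrays alone had no dye term, and limma gave all genes the same variance (infinite prior degrees of freedom). Its p-values therefore follow the mean of the 2 arrays and not how far the arrays of a gene lie apart. PHO89, at -1.19 by both routes, had a limma adjusted p of 0.0242 on the path and 2.1e-16 on the 2 arrays. The counts of calls thus come from unlike tests, and 17.3% does not measure how well the routes repeat each other. Both routes measure the same strains, and whether they share RNA extracts is not given in the labels. PUT1 was at 4.19 on the path, GAP1 at 3.62 and DAL3 at 2.95, and TAT1 was at -3.04, BAP3 at -3.01 and CHA1 at -2.35. In a test of the difference between the routes limma called 0 of 5711 genes (0%), and 260 had an unadjusted p under 0.05, where 285.6 are due by chance. The median SE of that difference was 0.162. Without array 1 of ssy1KO and wt the test called 73 genes, without array 2 of that pair 5, and without array 1 or 2 of ssy1T9 and ssy1KO 16 or 6. It called 0 without either array of ssy1T9 and wt. The difference with the largest size was in MET3, at 1.39 (adjusted p = 0.847), followed by RPF1 at -1.30, FBA1 at -0.96, INN1 at -0.83 and NAF1 at -0.77.

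Where ssy1T9 and ssy1KO differed was tested in the main fit over 6 arrays, and 18 genes were called (0.315%), 10 higher and 8 lower in ssy1T9. HEM3, PHO89, COS12, HXT2 and HAC1 were lower in ssy1T9 than in ssy1KO and also lower than in wt. HEM3 read -0.34 and -0.59 and PHO89 -0.39 and -0.58 in ssy1T9 over ssy1KO on the 2 arrays of that pair (adjusted p = 0.00422 and 0.00111). COS12, of a subtelomeric family whose members are close in sequence, read -1.04 and -0.79 over wt and -0.60 and -0.41 over ssy1KO (adjusted p = 0.00337). HXT2 and HAC1 read -0.37 and -0.45 and -0.43 and -0.45 over ssy1KO (adjusted p = 0.00995 and 0.0354). Leaving out any 1 array left 7 to 19 genes called. The 7 genes SSY1, URA1, URA3, TIM9, MDH2, CHA1 and FUI1 were called in each of these 6 fits. HEM3, PHO89 and SED1 lost the call without array 1 of ssy1KO and wt or without array 1 of ssy1T9 and ssy1KO (highest adjusted p = 0.256, 0.0774 and 0.168), COS12 in 3 of the 6 fits (0.256), HXT2 in 4 (0.682) and HAC1 in 5 (0.993). In ssy1KO over wt the arrays of these genes did not always agree: HEM3 read -1.14 and -0.42 and HAC1 -0.83 and -0.19. SED1 and MDH2 were low in both strains and higher in ssy1T9 than in ssy1KO, by 0.45 and 1.03 (adjusted p = 0.00258 and 4.5e-09). Both strains are compared with the same wt.

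**Figure D4:**
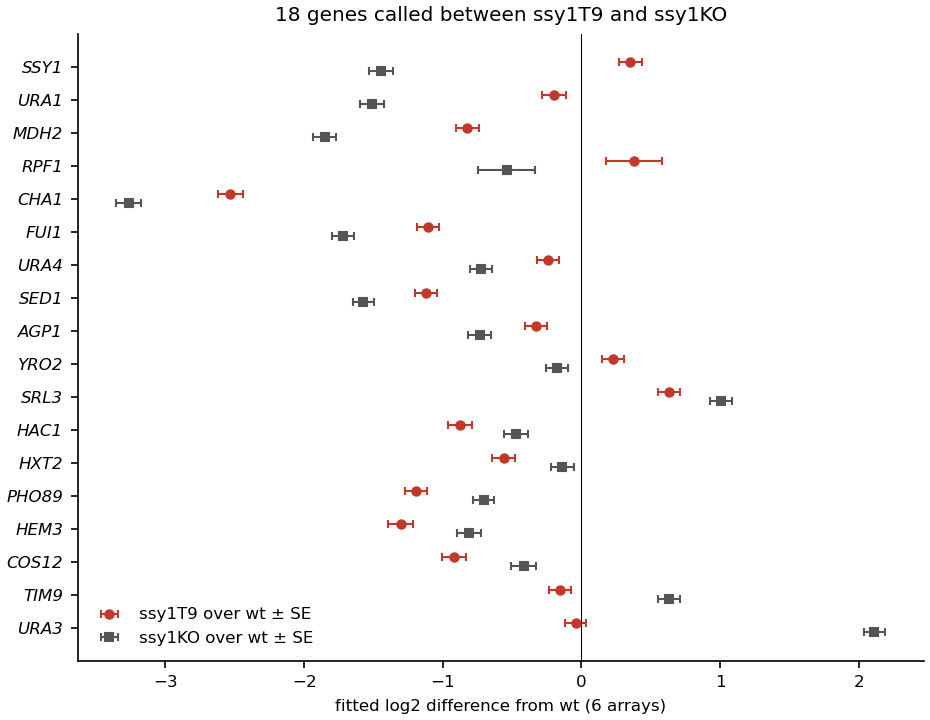
Fitted log2 difference from wt in ssy1T9 and in ssy1KO (horizontal, with SE) for the 18 genes called between the strains, in order of the difference between them. HEM3, PHO89, COS12, HXT2 and HAC1 lie further left in ssy1T9, while SSY1, URA1, MDH2, CHA1 and FUI1 lie further left in ssy1KO.

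Dye effects separated the 2 arrays for some genes. By limma 455 genes (7.97%) had a dye effect over the 6 arrays, 244 brighter in Cy5 and 211 brighter in Cy3 relative to the typical gene. The count was 59 without array 1 of ssy1KO and wt, 119 without array 1, and 223 to 671 without any other single array. GIC2, encoding an effector of the GTPase Cdc42, had the largest at 0.91, and read -0.47 and 1.97 in ssy1T9 over wt, so the sign changed between arrays although the fit called it higher (0.62, adjusted p = 9.9e-05). TOF2, GPN3, SER3 and CKA1 came next in size. TOF2 read -0.81 and 1.03, GPN3 -0.69 and 0.90 and CKA1 0.67 and -0.69, and none of these was called between the strains. The arrays lay over 0.5 from 0 in opposite directions for 4 genes, TOF2, GPN3, CKA1 and MRPS16. INN1 at -0.09 and -1.55 and NAF1 at -0.11 and -1.51 were far from 0 on array 2 only, and both lost their call without array 2 or without array 1 of ssy1KO and wt.

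**Figure D5:**
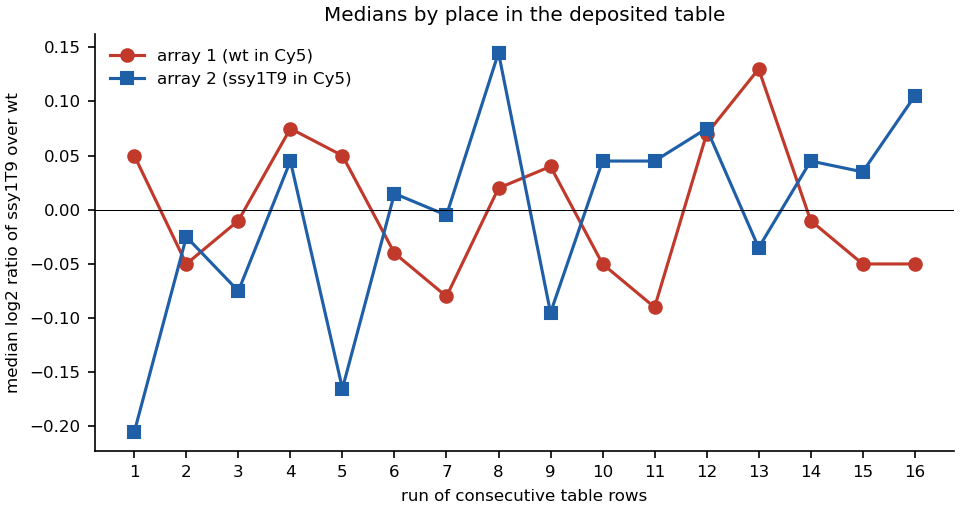
Median log2 ratio of ssy1T9 over wt of the named rows in each of 16 consecutive runs of 484 table rows (horizontal, in table order) on array 1 and array 2, each array centred on its overall median. In each successive set of 4 runs array 2 is lowest in the first and highest in the last, with extremes of -0.21 in run 1 and 0.15 in run 8.

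Values also depended on the place of a row in the deposited table. In 16 consecutive runs of 484 rows the medians of array 2 spanned 0.35, from -0.21 to 0.15, and those of array 1 spanned 0.22. On array 2 the first run of each 4 had the lowest median of the set, at -0.035 or lower, and the last the highest, at 0.045 or more. On the other arrays the span was 0.19 to 0.57, the largest on array 2 of ssy1KO and wt. The sources used here do not say how rows lie on the slide, and what causes the pattern was not tested. Centring within runs, an alternative added after the pattern was seen, raised r between the arrays to 0.73 and the called genes to 1890, of which 1377 were called in the same direction by the main fit. Genes of chromosomes I, II and III, whose names begin with YA, YB and YC, had medians of -0.13, -0.12 and -0.14 on array 1 and of 0.12, 0.14 and 0.18 on array 2, which nearly cancel in the mean of both.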

How the data were processed

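Dual-colour arrays of budding yeast compared wt, ssy1KO and ssy1T9 in pairs, with 2 dye-exchanged arrays per pair, and per the labels' protocols the RNA was labelled with the Genisphere 3DNA system. The authors deposited 1 table of 7744 rows of log2 ratios; the base of the logarithm, the ratio's direction, the normalization and any background correction are not stated in the labels or headers, so the base was assumed and the direction inferred from SSY1 in ssy1KO. A platform table gave a symbol for 6116 rows, of which 6111 matched the RefSeq R64 annotation by identifier, and 1628 rows had none. Each column was centred on its median over named rows and turned to ssy1T9 over wt, and spots of a gene were averaged (33 genes had more than 1 spot). Separate cultures for the paired arrays are not mentioned in the labels, and the number of arrays limits the precision.

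In R 4.3.3, limma 3.58.1 fitted a dye intercept and 2 strain coefficients to all 6 arrays (3 residual and 22 prior degrees of freedom), with Benjamini-Hochberg adjustment over 5711 genes. The same fit tested the dye intercept and ssy1T9 against ssy1KO. A separate limma fit to the 6 arrays, with a dye intercept and a coefficient for each pair of strains, tested the 2 arrays against the path through ssy1KO. The model was tested on simulated data of 5711 genes, where it recovered 100.0% of 50 genes changed by 0.5 on the log2 scale and called 0.109% of unchanged genes. A change of 0.5 is large beside the median SE of 0.08. The simulated noise was normal, independent between arrays and of the fitted size, without the dependence on table rows. The test therefore checks the code and gives no rate of false calls for the real arrays. Named genes are SSY1, the 12 largest rises and falls with one direction on both arrays, up to 4 members of each of 56 lists by size of change, all members of short lists where the text describes them, the 5 largest dye effects and differences between routes, and the 5 genes on each side of the threshold. Genes named outside this rule were chosen after their values were seen. Comparison, lists and tests were chosen with earlier results of these data known. Figures were drawn with matplotlib 3.10.9.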

Additional observations from a re-analysis of the deposited data

Results flagged for a closer look

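A test of ssy1T9 against ssy1KO in the fit over 6 arrays passed for 15 genes named above, and their difference as ssy1T9 minus ssy1KO on the log2 scale is given here. SSY1 differed by 1.80 and URA1, for dihydroorotate dehydrogenase, by 1.31. MDH2 differed by 1.03, CHA1 by 0.73, FUI1 by 0.61, SED1 by 0.45 and AGP1 by 0.41, all higher in ssy1T9. RPF1, a ribosome assembly gene, differed by 0.92, but the arrays of ssy1T9 over ssy1KO read 2.55 and 0.15, and the call was lost in 4 of the 6 fits that left out 1 array (highest adjusted p = 0.998). URA3 differed by -2.16, TIM9, a mitochondrial import gene next to it in the annotation, by -0.79, COS12 by -0.50, HEM3 by -0.49, PHO89 by -0.49, HXT2 by -0.42 and HAC1 by -0.40, all lower in ssy1T9. Of these SSY1, URA1, MDH2, CHA1, FUI1, URA3 and TIM9 were called in each fit that left out 1 array, and the others lost the call in at least 1 such fit. In ssy1KO over wt URA3 read 2.14 and 2.18 on the 2 arrays of that pair.

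Among 1628 table rows with no gene symbol 2 lay at least 2-fold higher in ssy1T9 on both arrays, with means of 2.70 and 1.25, and 0 lay 2-fold lower. These rows are unnamed here and were not tested.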

How the results depend on the processing

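The number of called genes, 1501, came to 584 on the 2 arrays of ssy1T9 and wt, 101 on the 4 arrays of ssy1KO, 817 without a dye intercept, 875 after quantile normalization, 284 when tested against a 1.2-fold change and 940 at an adjusted p under 0.01. Leaving out 1 array gave 821 to 1501 for this count, 0 to 73 for genes differing between routes, 59 to 671 for dye effects and 7 to 19 for ssy1T9 against ssy1KO; the last 3 ranges were added after the data were seen. Centring on all rows, a common spread or the first spot of each gene kept the number of called genes within 1.5 times. The count of genes with a dye effect rose from 455 to 5586 without centring, and that of genes differing between routes from 0 to 2. The 18 genes between ssy1T9 and ssy1KO became 13 without centring and 17 with centring within runs of rows. On the 4 arrays of ssy1KO alone INN1 lay at 0.015 and TEF2 and SHM1 at 0.06, above 0, and YPR137C-B at -0.015, and no other named gene called over 6 arrays changed sign in the alternatives run per gene. Of named genes not called, 15 changed sign in at least 1 alternative, among them CKA1, FBA1, GCN4, MRPS16, RPF1, TIM9, URA1, URA3 and the uncalled DAL genes.

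Without centring, list medians changed sign to 0.0308 for pyrimidine genes, 0.0758 for iron, 0.10 for phosphate, 0.12 for cell wall, 0.16 for endoplasmic reticulum folding, 0.01 for the large mitochondrial ribosome, 0.10 for aminoacyl-tRNA synthetases, 0.035 for heme, 0.11 for fatty acids, 0.10 for meiosis, 0.105 for general amino acid control, 0.128 for other amino acid permeases, 0.142 for the respiratory chain, 0.157 for ergosterol and 0.123 for histones. The median of all genes was 0.168 in that setting and -0.01 after centring, and each of these lists lay below it in both. These sign changes thus come from the shift of all genes, and no such list crossed the typical gene. Centring within runs turned phospholipid genes to -0.0333, zinc and vitamin genes to -0.0088, MATa genes to -0.0017, redox genes to -0.0367 and ergosterol genes to 0.0283. On the 4 arrays of ssy1KO the proteasome median was -0.005 and that of MATa genes -0.085, while general amino acid control was at 0.075, histones at 0.055, the respiratory chain at 0.025 and thiamine genes at -0.115, and on the 2 arrays alone zinc and vitamin genes lay at 0. Leaving out 1 array moved folding genes to as low as -0.0447 and as high as 0.0203, phospholipid genes to -0.0042 to 0.0189 and MATa genes to -0.03 to 0.05. Medians also crossed 0 in 1 or more such fits for general amino acid control, histones, thiamine, redox and daughter separation genes, and on the 2 arrays alone or with a common spread for some of these. The causes of the sign changes in settings other than that without centring were not tested. No further pairing was added because each array holds both strains of its pair, so the ratio is already within an array.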

Other observations

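Genes of the ASP3 cluster, which encode the cell wall asparaginase induced under nitrogen limitation, rose together with their neighbours; the group was chosen after its values were seen. ASP3-1 read 0.72 and 0.83, ASP3-2 0.75 and 0.79, ASP3-3 0.80 and 0.63 and ASP3-4 0.69 and 0.70 on arrays 1 and 2, all called higher. YLR156W, YLR159W and YLR161W, genes that lie next to ASP3-1, ASP3-3 and ASP3-4 in the annotation, read 0.98 and 0.94, 1.03 and 0.92 and 1.02 and 1.11. The copies are close to identical in sequence, so their probes may share signal and the 7 genes are not separate measurements. In ssy1KO over wt ASP3-1 read 0.73 and 0.99 and YLR156W 0.92 and 1.13.

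Other lists are read against the 13.9% of all genes called higher and the 12.4% called lower. Of 17 genes of multidrug resistance 5 rose and 0 fell in limma's fit over 6 arrays, 4 and 1 without array 1. The polyamine exporter genes TPO2 and TPO3 read 0.62 and 0.52 and 0.61 and 0.59, the weak acid exporter gene PDR12 0.58 and 0.44 and PDR15 0.43 and 0.38. In the Ehrlich pathway, by which amino acids are broken down to fusel alcohols, 3 of 14 genes rose and 4 fell. ARO9, encoding the catabolic aromatic aminotransferase, read -0.20 and -0.50, the decarboxylase gene ARO10 -0.59 and -0.53, and the alcohol acetyltransferase genes ATF1 and ATF2 -0.40 and -0.49 and -0.26 and -0.30. Against these falls stood the alcohol dehydrogenase gene ADH5 at 0.29 and 0.87 and the biosynthetic aminotransferase gene ARO8 at 0.43 and 0.24, whose call was lost in 1 of the 6 fits that leave out 1 array. The vitamin B6 genes SNZ2 and SNZ3, which are near-identical copies, read -0.42 and -0.47 and -0.40 and -0.40. Of 25 ergosterol genes 1 rose (4%), ERG28 at 0.71 and 0.45, and 2 fell (8%), both below the shares of all genes; without array 2 it was 3 and 1. Of 34 genes of the large mitochondrial ribosomal subunit 6 fell and 1 rose, but without array 2 it was 1 in each direction and without array 1 of ssy1KO and wt 2 fell and 0 rose.

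Single genes picked after their values were seen, with no count of their pathways, were also called. ZWF1, encoding glucose-6-phosphate dehydrogenase, read 0.77 and 0.69, SOL4, a 6-phosphogluconolactonase gene, 0.94 and 0.70 and GND1, for 6-phosphogluconate dehydrogenase, 0.83 and 0.74. These enzymes belong to the oxidative pentose phosphate pathway, of which GND2, the paralog of GND1, read -0.23 and -0.06 and was not called. The membrane protein genes IZH1, IZH2 and IZH4 were called lower, at -0.44 and -0.59, -0.68 and -0.51 and -0.56 and -0.83.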
